A study of Mus musculus with 20 samples.

Results

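The liver expression of 9 cytochrome P450 genes of the Cyp2a and Cyp2d families was examined in chow-fed and HFD-fed mice. The genes were Cyp2a4, Cyp2a5, Cyp2a12, Cyp2a22, Cyp2d9, Cyp2d10, Cyp2d22, Cyp2d26 and Cyp2d40, 9 of the 55487 genes in the count table. They were matched by symbol and were chosen by the HFD versus chow contrast, since several of them read higher in HFD-fed mice while other P450 genes read lower. Every value of that contrast, and of each HFD group against chow, is therefore a description of the chosen genes. The rule of that choice did not use the comparisons among the HFD groups. Earlier results of these data were known, however, and the paper had reported Cyp2a22 as higher in fishmeal than in beef mice.

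Strand-specific mRNA sequencing had been performed on liver from 20 female C57BL/6J mice, all 28 weeks old. The labels name no engineered allele or drug. From 8 weeks of age the animals received chow or a high-fat diet (HFD) for 10 weeks. HFD-fed mice then received HFD for another 10 weeks with much of its protein from salmon fishmeal (fishmeal), salmon filet or beef, while the controls stayed on chow. The labels gave 5 chow, 5 fishmeal, 6 salmon filet and 4 beef mice. All HFD groups shared the first HFD period. Mouse 31 was labelled salmon filet, but its column in the count table carried the name of the beef group. The paper describes 5 sequenced mice in each diet group, a count that is reached only with mouse 31 as beef. Because its names differ, mouse 31 was left out of every comparison with salmon filet or beef and was kept among the 15 HFD-fed mice. Libraries held 42526234 to 70266136 counted reads, of which protein coding genes took 93.2% to 95.6%, except in beef mouse 35 with 84.3%. The 5 hepatocyte markers (Alb, Ttr, Apoa1, Serpina1a, Hnf4a) summed to between 80552 and 113328 CPM in every mouse. CPM (counts-per-million) are the reads of a gene scaled to the library total after TMM normalisation. Because whole liver was sequenced, fewer cells of a type and less RNA per cell cannot be told apart.

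Cytochrome P450 enzymes are haem proteins of the endoplasmic reticulum that oxidise lipophilic compounds with electrons from Por, the P450 reductase. In the mouse, the Cyp2a and Cyp2d families act on drugs, plant toxins and steroids, and several members are expressed in a sex-biased or daily rhythmic manner in the liver. Cyp2a5 is a coumarin hydroxylase and oxidises nicotine, whereas its near copy Cyp2a4 is a testosterone hydroxylase with female-biased expression. Cyp2a12 hydroxylates steroids and bile acids. Cyp2d9 is another testosterone hydroxylase, with male-biased expression, and Cyp2d22 is regarded as the mouse counterpart of the human drug-metabolising enzyme CYP2D6.

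The genes lie in a pair of tandem clusters. In GRCm38 (GENCODE M21 annotation), the 4 Cyp2a genes lie on chromosome 7 between positions 26307169 and 27037375, a span of 730 kb with 7 protein coding P450 genes. The 5 Cyp2d genes lie on chromosome 15 between positions 82370527 and 82794294, a span of 424 kb with 8 protein coding P450 genes and 9 P450 pseudogenes. RefSeq promoter windows on GRCm38.p6 were matched for 8 of the 9 genes. The upstream sequences of the near-identical Cyp2a4 and Cyp2a5 are shown because their reads moved apart between chow-fed and HFD-fed mice, and those of Cyp2a12 and Cyp2a22 because each did not overlap between fishmeal and 1 other HFD group (Cyp2a12 with salmon filet, Cyp2a22 with beef), although neither was called. Each line runs 5' to 3' on the strand of the gene and ends before the annotated gene start. Capitals mark bases that, in the aligned stretch, differ from the other gene of the pair or face a gap in it. The Cyp2a4 window is chr7:26306942-26307168 (plus strand), that of Cyp2a5 is chr7:26835089-26835304 (plus strand), that of Cyp2a12 is chr7:27028840-27029080 (plus strand) and that of Cyp2a22 is chr7:26939387-26939636 (minus strand).

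Cyp2a4: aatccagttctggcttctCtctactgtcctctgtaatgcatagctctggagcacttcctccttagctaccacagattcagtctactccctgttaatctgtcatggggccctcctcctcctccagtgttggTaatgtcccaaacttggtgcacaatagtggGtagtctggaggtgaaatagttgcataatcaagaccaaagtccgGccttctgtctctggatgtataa
Cyp2a5: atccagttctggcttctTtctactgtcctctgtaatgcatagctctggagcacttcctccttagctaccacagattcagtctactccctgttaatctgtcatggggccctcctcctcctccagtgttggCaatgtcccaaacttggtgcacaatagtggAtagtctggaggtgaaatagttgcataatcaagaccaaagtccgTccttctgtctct
Cyp2a12: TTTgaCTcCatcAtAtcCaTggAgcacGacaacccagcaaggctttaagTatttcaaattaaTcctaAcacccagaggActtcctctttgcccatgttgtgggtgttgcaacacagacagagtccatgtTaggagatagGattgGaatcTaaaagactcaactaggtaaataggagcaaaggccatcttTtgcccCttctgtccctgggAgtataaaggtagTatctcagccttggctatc
Cyp2a22: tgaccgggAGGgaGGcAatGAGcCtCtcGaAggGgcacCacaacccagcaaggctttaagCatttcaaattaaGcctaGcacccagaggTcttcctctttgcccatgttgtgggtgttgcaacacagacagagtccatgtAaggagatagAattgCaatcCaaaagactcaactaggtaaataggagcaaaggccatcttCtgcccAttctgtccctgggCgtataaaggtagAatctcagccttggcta

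Over these windows Cyp2a4 and Cyp2a5 differed at 4 of 216 aligned bases, an identity of 98.1%. Cyp2a12 and Cyp2a22 differed at 24 of 239 aligned bases with 3 gap bases, an identity of 88.8%. The full 250 bases before the RefSeq start were searched on both strands for the D-box TTANGTAA, the E-box CACGTG, a STAT5 site TTCNNNGAA and an HNF4 site CAAAGTCCA. These letters were found in 2.06%, 6.02%, 7.02% and 0.384% of the 32851 promoter windows of the reference, and in none of the 8 windows of the Cyp2a and Cyp2d genes, which says only that these letters are not in these windows. Looser forms of these sites were not searched and may be present.

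The close similarity extended to the transcripts and bears on how reads were assigned. The Cyp2a4 and Cyp2a5 transcripts were 98.2% identical over 1739 aligned bases, and Cyp2a12 and Cyp2a22 were 96.3% identical over 1677 bases. Of all stretches as long as a read (50 bases) in the Cyp2a4 transcript, 36.1% occurred unchanged in Cyp2a5. For Cyp2a12, 27.5% of the stretches occurred in Cyp2a22. The share found in any other gene was 40.8% for Cyp2a5, 40.5% for Cyp2d10, 29.0% for Cyp2d9 and 24.1% for Cyp2d40, but only 10.5% for Cyp2d26 and 6.14% for Cyp2d22. These shares count single stretches, whereas the reads were paired, so they are not the share of read pairs that fit several genes. The handling of reads that fit several genes was not stated, so the split of reads within the similar pairs is uncertain. Cyp2a22 also overlapped the pseudogene Cyp2a21-ps on the opposite strand over 7754 bases, and the strand setting of the counting was not stated.

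Per length, in TPM (transcripts-per-million), the 9 genes covered a wide range. In chow-fed mice Cyp2d26 had the highest mean level (859 TPM), followed by Cyp2a4 (534), Cyp2d10 (414), Cyp2a12 (399), Cyp2a5 (265), Cyp2d22 (102), Cyp2a22 (98.3), Cyp2d40 (40.4) and Cyp2d9 (16.2). Most neighbours in this order kept it in all 5 chow mice, but Cyp2d10 exceeded Cyp2a12 in 4 of 5 and Cyp2d22 exceeded Cyp2a22 in 3 of 5, so these pairs were not separated by their levels. Across the 15 HFD-fed mice Cyp2d26 was again first in every mouse, at 1121 TPM. Cyp2a5 was second at 533 TPM but exceeded Cyp2a12 (457 TPM) in only 9 of 15 mice. Cyp2a12 exceeded Cyp2d10 (410 TPM) in 10 of 15, and Cyp2d10 exceeded Cyp2a4 (399.6 TPM) in 8 of 15, so the order of these 4 genes was not settled. Cyp2a22 stood at 212 TPM and exceeded Cyp2d22 (119 TPM) in 14 of 15 mice, and Cyp2d40 (53.9 TPM) lay below Cyp2d22 in all 15. In salmon filet mouse 23 Cyp2a22 was at 46.4 TPM, below Cyp2d40 at 67.2 TPM. Cyp2d9 (16.8 TPM) was last in all 15. The 4 Cyp2a genes together made up 4.68% ± 0.59 (SD, n = 5) of all protein coding P450 TPM in chow-fed mice and 5.90% ± 1.29 (SD, n = 15) in HFD-fed mice. For the 5 Cyp2d genes these shares were 5.14% ± 0.76 and 6.44% ± 1.08.

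Cyp2a5 was the member with the most regular difference between chow-fed and HFD-fed mice. Its level in chow mice 1, 2, 5, 7 and 10 was 286, 165, 224, 192 and 203 CPM. In fishmeal mice 12, 13, 14, 16 and 20 it was 591, 370, 625, 404 and 761 CPM. In salmon filet mice 22, 23, 25, 26 and 27 it was 325, 289, 667, 245 and 372 CPM, and in beef mice 32, 35, 39 and 40 it was 317, 387, 476 and 568 CPM. Fishmeal and beef mice did not overlap with chow, whereas salmon filet mouse 26 and mouse 31 (249 CPM) lay below chow mouse 1. All 15 HFD-fed mice lay above the chow mean. The log2 fold change of HFD over chow was 1.05 ± 0.24 (SE).

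Cyp2a4 behaved differently from its near copy. It was at 307, 322, 376, 454 and 329 CPM in chow mice 1, 2, 5, 7 and 10, and at 435, 189, 230, 287 and 414 CPM in fishmeal mice 12, 13, 14, 16 and 20. In salmon filet mice 22, 23, 25, 26 and 27 its level was 211, 125, 512, 152 and 358 CPM, and in beef mice 32, 35, 39 and 40 it was 261, 212, 223 and 399 CPM. All HFD groups overlapped with chow, and the salmon filet group spread widest, with an SD of 162 CPM around a mean of 271. The log2 fold change of HFD over chow was -0.36 ± 0.25 (SE).

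Expressed as a balance, Cyp2a4 supplied 51.9%, 66.1%, 62.7%, 70.31% and 61.9% of the joint Cyp2a4 and Cyp2a5 reads in chow mice 1, 2, 5, 7 and 10. The share was 26.9% to 42.4% in fishmeal, 30.2% to 49.0% in salmon filet and 31.9% to 45.2% in beef mice, and 42.3% in mouse 31. No HFD-fed mouse reached the lowest chow mouse. The group means were 62.6% ± 6.9 (SD, n = 5) in chow, 36.0% ± 6.3 (n = 5) in fishmeal, 40.1% ± 6.9 (n = 5) in salmon filet and 38.4% ± 5.9 (n = 4) in beef. Among the HFD groups the share was tested by exact two-sided permutation tests over mice, adjusted over 3 pairs. Fishmeal minus salmon filet was -4.11 percentage points (exact p = 0.341, adjusted p = 0.698). Fishmeal minus beef was -2.47 points (exact p = 0.571, adjusted p = 0.698) and salmon filet minus beef was 1.63 points (exact p = 0.698, adjusted p = 0.698). None of the 3 pairs of HFD groups thus had an adjusted p under 0.05 in this test. With groups of 4 or 5 mice, a difference in the share could have been missed. When the reads of both genes were summed, the log2 fold change of HFD over chow was 0.34 ± 0.22 (SE), well below that of Cyp2a5 alone.

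**Figure D1:**
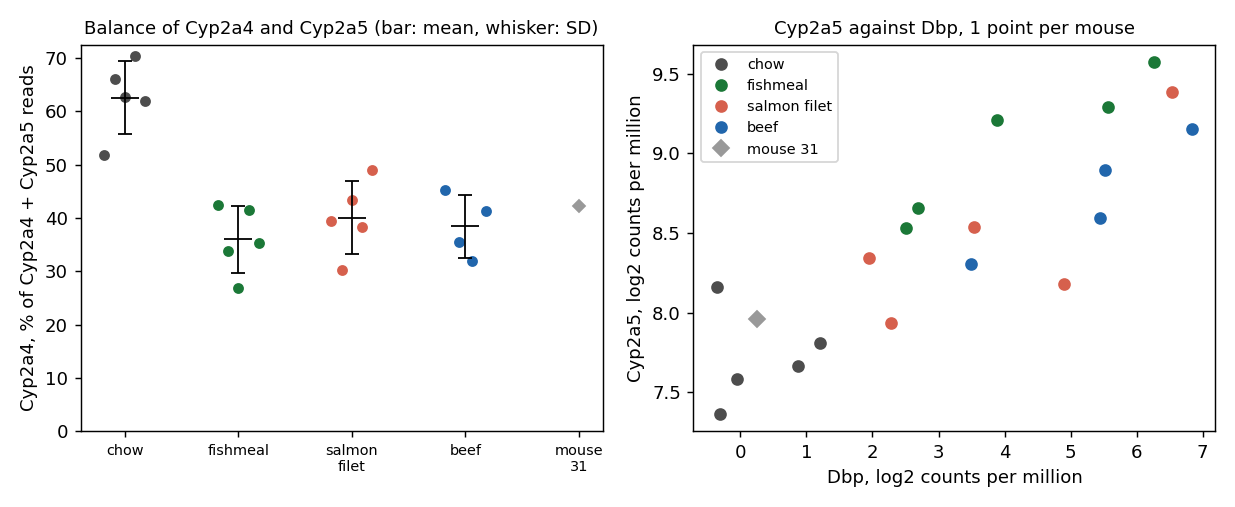
Left, reads of Cyp2a4 as a percentage of Cyp2a4 plus Cyp2a5 reads for each mouse by diet group, with mean and SD. The 5 chow mice lie at 51.9% or above and all HFD-fed mice at 49.0% or below. Right, log2 CPM of Cyp2a5 against log2 CPM of Dbp, with 1 point per mouse coloured by group. Mice with more Dbp had more Cyp2a5, also among HFD-fed mice.

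Cyp2a22 was the other Cyp2a gene called in HFD versus chow. Chow mice 1, 2, 5, 7 and 10 had 94.4, 71.6, 132, 164 and 192 CPM. Fishmeal mice 12, 13, 14, 16 and 20 had 396, 389, 324, 479 and 439 CPM, and beef mice 32, 35, 39 and 40 had 254, 212, 230 and 201 CPM. Salmon filet mice 22, 23, 25, 26 and 27 had 337, 66.9, 371, 177 and 265 CPM, and mouse 31 had 226 CPM. Fishmeal and beef mice lay entirely above chow, whereas salmon filet mouse 23 was below all chow mice. The log2 fold change of HFD over chow was 1.15 ± 0.31 (SE). That of fishmeal over chow was 1.62 ± 0.24, that of salmon filet over chow 0.90 ± 0.39 and that of beef over chow 0.77 ± 0.25.

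Cyp2a12, the closest relative of Cyp2a22, varied less. It ranged from 465 to 579 CPM in chow, from 655 to 876 in fishmeal, from 470 to 635 in salmon filet and from 484 to 665 in beef mice. The log2 fold change of fishmeal over chow was 0.46 ± 0.11 (SE), compared with 0.09 ± 0.11 for salmon filet and 0.13 ± 0.12 for beef. The TPM of Cyp2a22 as a ratio to that of Cyp2a12 was 0.244 ± 0.086 (SD, n = 5) in chow, 0.552 ± 0.075 (n = 5) in fishmeal, 0.422 ± 0.197 (n = 5) in salmon filet and 0.390 ± 0.063 (n = 4) in beef.

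**Figure D2:**
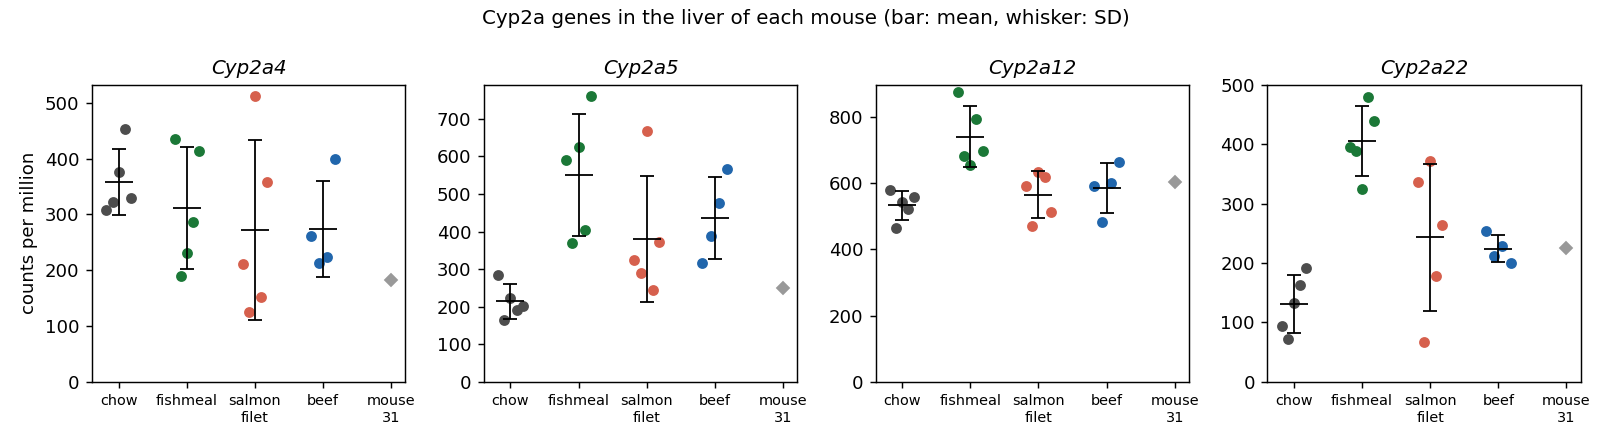
CPM of the 4 Cyp2a genes in every mouse by diet group, with mean and SD, and mouse 31 as a grey diamond. Fishmeal mice lie above all chow mice for Cyp2a5, Cyp2a12 and Cyp2a22, and above all beef mice for Cyp2a22.

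The Cyp2d genes differed less from chow. Cyp2d26, the member with the highest level, had 420, 536, 723, 594 and 698 CPM in chow mice 1, 2, 5, 7 and 10. Fishmeal mice ranged from 636 to 999 CPM, salmon filet mice from 682 to 915 and beef mice from 513 to 950, so that every HFD group overlapped with chow. The log2 fold change of HFD over chow was 0.44 ± 0.14 (SE). Cyp2d40 ranged from 18.4 to 33.2 CPM in chow and from 26.9 to 61.5 CPM in HFD-fed mice, with a log2 fold change of 0.49 ± 0.16. Cyp2d22 ranged from 135 to 176 CPM in chow and from 148 to 222 CPM in HFD-fed mice, with a log2 fold change of 0.26 ± 0.09. Cyp2d10 (220 to 316 CPM in chow, 175 to 374 in HFD) and the male-biased Cyp2d9 (14.2 to 21.6 CPM in chow, 10.9 to 25.3 in HFD) were at similar levels on both diets, with log2 fold changes of 0.04 ± 0.13 and 0.09 ± 0.17.

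**Figure D3:**
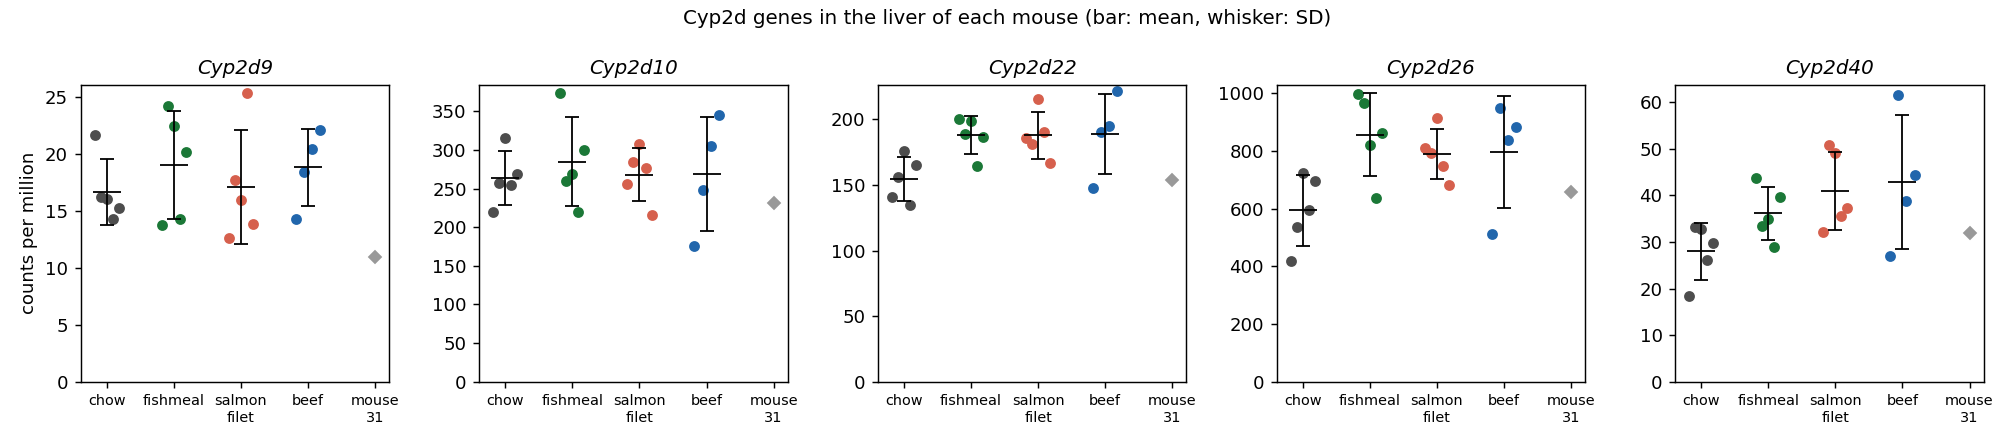
CPM of the 5 Cyp2d genes in every mouse by diet group, with mean and SD, and mouse 31 as a grey diamond. HFD groups and chow overlap for all 5 genes, with chow mouse 1 and beef mouse 32 the lowest of their groups for Cyp2d10, Cyp2d26 and Cyp2d40.

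A gene was called when its p from edgeR's quasi-likelihood test, adjusted over all genes tested, was under 0.05. In HFD versus chow, 3 of the 9 genes were called higher (Cyp2a5, Cyp2a22 and Cyp2d26) and 0 lower. Among 13702 protein coding genes tested, 10.3% were called, 4.74% higher and 5.59% lower. The median log2 fold change of the 9 genes was 0.26, against 0.01 for all coding genes. In fishmeal versus chow, 3 of 9 were called higher (Cyp2a5, Cyp2a12 and Cyp2a22), with 1.55% of coding genes called higher. The same 3 genes did not overlap between the groups, which held for 3.17% of coding genes. In salmon filet versus chow 0 of 9 were called (2.22% of coding genes higher), with 5 of the 9 at an unadjusted p under 0.05 and 2 called by DESeq2 (Cyp2a5 and Cyp2d40). The shares of all coding genes for the unadjusted p and for DESeq2 are not given here. In beef versus chow Cyp2a5 alone was called (1.19% of coding genes higher), and Cyp2a5 and Cyp2a22 did not overlap with chow (4.05% of coding genes). These 4 comparisons share the same chow mice, and nothing is read from their counts since the contrast chose the genes. The call of Cyp2d26 in HFD versus chow was lost in 13 of the 20 fits that left out a mouse. The call of Cyp2a22 in HFD versus chow was lost without chow mouse 1 (adjusted p = 0.0751, edgeR) or chow mouse 2 (adjusted p = 0.0744, edgeR), that of Cyp2a12 in fishmeal versus chow in 8 of 10, and that of Cyp2a5 in beef versus chow without mouse 2, 7, 39 or 40.

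The comparisons among HFD groups addressed whether these genes differed between diets that were all high in fat. By the paper, the fishmeal diet also held more cholesterol and added soybean oil than the salmon filet and beef diets. Fishmeal was also richer in several minerals. The protein source cannot be told apart from these differences. Cyp2a22 had the clearest difference. It was higher in fishmeal than in beef mice by a log2 fold change of 0.85 (95% interval 0.55 to 1.15), with means of 406 and 224 CPM, and all 5 fishmeal mice lay above all 4 beef mice and above mouse 31. Only 0.298% of coding genes were higher in fishmeal than in beef without overlap. The adjusted p was 0.152 (edgeR) and the gene was not called. It was called by DESeq2 (adjusted p = 1.03e-05) and when mouse 31 was counted as beef (adjusted p = 0.0469, edgeR), and over 18 alternatives the adjusted p ran from 1.03e-05 to 0.993. The paper, which used DESeq2 on these same libraries, reported Cyp2a22 as increased in fishmeal compared with beef mice. That result is not independent of the values given here. Cyp2a12 was higher in fishmeal than in salmon filet by 0.37 on the log2 scale (95% interval 0.11 to 0.63, adjusted p = 0.726 by edgeR) with no overlap between the groups, which held for 0.580% of coding genes. Against beef the Cyp2a12 difference was 0.34 (95% interval 0.04 to 0.64, adjusted p = 1.00). Cyp2a5 was at 0.52 above salmon filet (95% interval -0.07 to 1.11) and 0.33 above beef (95% interval -0.18 to 0.84). Cyp2a22 was 0.72 above salmon filet (95% interval -0.03 to 1.46) and Cyp2a4 0.18 (95% interval -0.61 to 0.96).

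In fishmeal versus salmon filet, 0 of the 9 genes were called, against 0.178% of coding genes, and 1 of 9 had an unadjusted p under 0.05, against 5.41%. In fishmeal versus beef, 0 of 9 were called, against 0.00744% of coding genes, and 2 of 9 had an unadjusted p under 0.05, against 1.91%. In salmon filet versus beef 0 of 9 were called by edgeR or DESeq2, against 0% of coding genes, and 0 of 9 had an unadjusted p under 0.05, against 3.77%. The 5 Cyp2d genes differed by -0.20 to 0.14 on the log2 scale between fishmeal and salmon filet and by -0.25 to 0.10 between fishmeal and beef. The widest of their 95% intervals reached from -0.71 to 0.20 (Cyp2d40, fishmeal versus beef). Between salmon filet and beef the 9 genes differed by -0.20 to 0.13, with intervals as wide as -0.83 to 0.83 for Cyp2a4. Differences inside these intervals were not excluded with 4 or 5 mice a group.

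**Figure D4:**
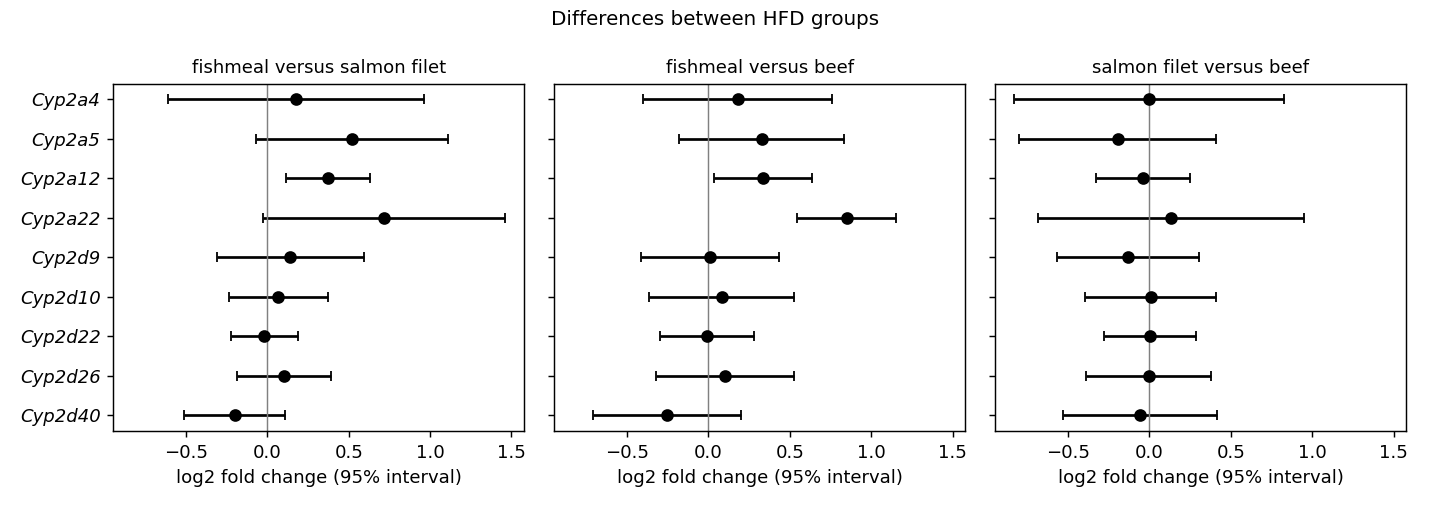
Log2 fold change with 95% interval of the 9 genes in the 3 comparisons among HFD groups, positive when the first-named group is higher. Cyp2a22 in fishmeal versus beef (0.85) lies farthest from 0, and the Cyp2d genes lie near 0 throughout.

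The members also varied among mice of the same group. After subtracting group means over the 19 mice other than mouse 31, Cyp2d10, Cyp2d22, Cyp2d26 and Cyp2d40 varied together, with Pearson's r of log2 CPM from 0.63 (Cyp2d22 and Cyp2d40) to 0.86 (Cyp2d10 and Cyp2d22). Cyp2d9 did not join them (r from 0.01 to 0.34). Among the Cyp2a genes r was 0.69 for Cyp2a4 and Cyp2a5, 0.59 for Cyp2a4 and Cyp2a22, and 0.48 for Cyp2a12 and Cyp2a22. The other pairs were at 0.46 (Cyp2a4 and Cyp2a12), 0.33 (Cyp2a5 and Cyp2a12) and 0.28 (Cyp2a5 and Cyp2a22). These values describe 19 libraries that share depth and base composition within each mouse. The libraries differed in how level depended on the GC content of transcripts. This trend, the log2 change per 10 percentage points of GC, ran from -0.42 in chow mouse 1 and -0.37 in beef mouse 32 to 0.37 in beef mouse 35. The transcripts of the Cyp2d genes had 52.7% to 54.6% GC, and those of the Cyp2a genes 48.9% to 50.3%. Within groups the correlation with the trend was 0.91 for Cyp2d26, 0.88 for Cyp2d40, 0.67 for Cyp2d10 and 0.67 for Cyp2d22. For Cyp2d9 it was only 0.08, although that transcript had 53.7% GC. For the Cyp2a genes it was -0.003 (Cyp2a4), 0.07 (Cyp2a5), -0.28 (Cyp2a12) and -0.07 (Cyp2a22). After the trend was removed, r fell from 0.80 to 0.58 for Cyp2d10 and Cyp2d26 and from 0.65 to 0.32 for Cyp2d10 and Cyp2d40. It stayed at 0.68 for Cyp2a4 and Cyp2a5. In a fit corrected for GC, the log2 fold change of HFD over chow was 0.39 for Cyp2d26 and 0.43 for Cyp2d40. That fit called 5 of the 9 genes, adding Cyp2d22 and Cyp2d40. Without chow mouse 1, whose library had the lowest trend, the uncorrected log2 fold change of Cyp2d26 was 0.34 (adjusted p = 0.179, edgeR).

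**Figure D5:**
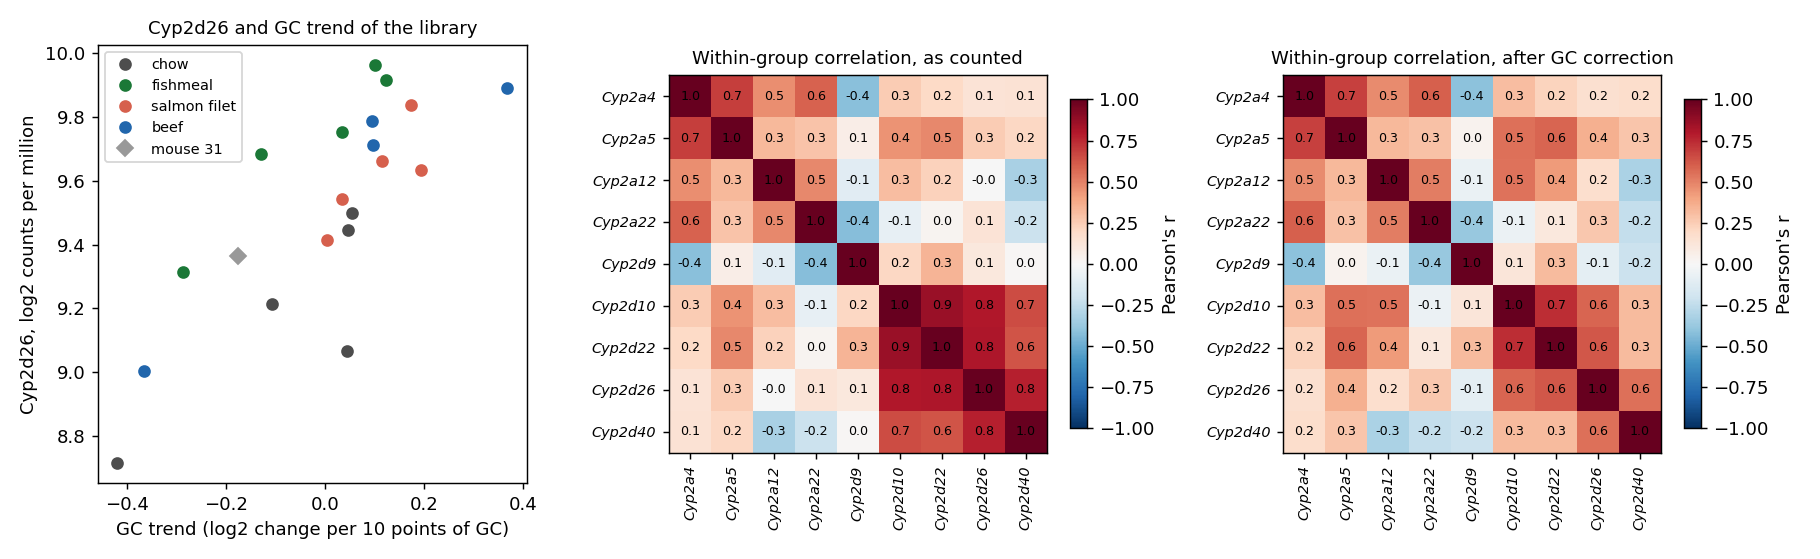
Left, log2 CPM of Cyp2d26 against the GC trend of the library, with 1 point per mouse. Centre and right, within-group Pearson's r between the 9 genes over 19 mice before and after removal of the GC trend. Cyp2d26 is lowest in chow mouse 1, which has the lowest trend, and the block of 4 correlated Cyp2d genes is paler after the correction.

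For each gene the 3 protein coding genes with the highest within-group r among 11556 were listed. They were picked as the highest of 11556 values from the same mice that gave r. How high the best values would be by chance was not tested. The names and values are therefore description only, and no link between the genes is read from them. For Cyp2a5 the 3 genes were Mcm10 (r = 0.87), the clock gene Per3 (0.83) and Max (0.83), the partner of Myc. For Cyp2a4 they were BC021614 (0.87), the pyruvate dehydrogenase kinase Pdk1 (0.85) and the liver pyruvate kinase Pklr (0.82). Cyp2a22 varied most closely with Hao2 (0.84), a female-biased hydroxyacid oxidase, followed by 2210404O09Rik (0.73) and the sulfotransferase Sult2a3 (0.72). For Cyp2a12 they were Uchl3 (0.87), Ndufb3 (0.87) and Ndfip2 (0.86), and for Cyp2d9 Cipc (0.80), Nox4 (0.78) and Prdm15 (0.77). The partners of the other Cyp2d genes had r from 0.85 to 0.97 and were Rrp1, Wdr83 and Cope for Cyp2d10, Atad3a, Rnh1 and Abhd15 for Cyp2d22, Pex16, Sirt2 and Gltscr2 for Cyp2d26, and Nfic, Prkcsh and Csk for Cyp2d40. After removal of the GC trend some of these values fell and others did not, in both families. For Cyp2d26 r was 0.57 with Pex16 but 0.93 with Sirt2 and with Gltscr2. For Cyp2d22 it was 0.36 with Atad3a, 0.69 with Rnh1 and 0.46 with Abhd15, and for Cyp2d10 it was 0.66 with Rrp1, 0.85 with Wdr83 and 0.87 with Cope. For Cyp2d40 it was 0.62 with Nfic, 0.85 with Prkcsh and 0.68 with Csk. For Cyp2a12 it was 0.66 with Ndfip2, 0.75 with Ndufb3 and 0.86 with Uchl3. The partners of Cyp2a4, Cyp2a5 and Cyp2a22 ranged from 0.71 to 0.88, and those of Cyp2d9 from 0.65 to 0.79.

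The PAR bZip factors Dbp, Tef and Hlf are clock-controlled activators of P450 genes, and Nfil3 is a repressor that binds the same sites. Within groups, r with Cyp2a5 was 0.78 for Dbp, 0.74 for Tef, 0.73 for Hlf and -0.71 for Nfil3. With Cyp2a4 the same values were 0.45, 0.35, 0.33 and -0.29, and with Cyp2a22 they were -0.04, -0.07, 0.02 and -0.04. For the other genes r with Dbp was 0.61 for Cyp2d40, 0.61 for Cyp2d22, 0.58 for Cyp2d10, 0.49 for Cyp2d26, 0.18 for Cyp2d9 and -0.06 for Cyp2a12, so the correlation was not particular to Cyp2a5. Dbp ranged from 0.748 to 2.26 CPM in chow, from 5.64 to 76.5 CPM in fishmeal, from 3.82 to 93.2 CPM in salmon filet and from 11.2 to 114 CPM in beef mice. In mouse 31 it was 1.159 CPM, within the range of chow. In the HFD versus chow contrast Dbp, Tef and Hlf were called higher, with log2 fold changes of 4.70 ± 1.00 (SE), 1.80 ± 0.38 and 0.49 ± 0.12. These levels moved with Cyp2a5, and their part in the Cyp2a5 difference was not tested. Time of day at sampling was not given in the labels.

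A further 6 genes and pseudogenes whose symbols begin with Cyp2a or Cyp2d were in the table. The pseudogene Cyp2d37-ps was abundant, at 105 to 173 CPM in chow and 57.8 to 255 CPM in HFD-fed mice, and fishmeal mouse 12 had the lowest value. Cyp2d34 was detected with 55 reads in chow mouse 10, 46 in beef mouse 40, 25 in beef mouse 39 and 10 in salmon filet mouse 26, and with 0 to 3 reads in all other mice. Cyp2d11 had 10 to 62 reads a library and Cyp2d12 had 3 to 23. Cyp2ab1, of a separate subfamily, had 0 to 8. The pseudogene Cyp2d41-ps had 5 to 25 reads a library and was called lower in HFD-fed mice (log2 fold change -0.92 ± 0.24). It shares 13.4% of the read-length stretches of Cyp2d40.

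The other gene lists were read in the same contrast. Of 55 other P450 genes tested, 1 was called higher in HFD-fed mice (Cyp46a1, log2 fold change 0.80) and 17 lower, with the bile acid enzyme Cyp7a1 the lowest (-1.98), and their median was -0.26. Of the 6 Cyp2b, Cyp2f, Cyp2g and Cyp2s genes tested, which include neighbours of the Cyp2a cluster, 2 were called higher (Cyp2b13 at 0.99 and Cyp2b9) and 1 lower (Cyp2b10 at -4.14). None of the 4 electron donors (Por, Cyb5a, Cyb5b, Cyb5r3) was called by edgeR, and 1 of the 4 had an unadjusted p under 0.05. Of 12 other regulators of P450 genes, 2 were called higher (Ppara at 0.85 and Cebpa) and 1 lower (Ahr at -0.45). In the growth hormone axis 1 of 8 genes was called, Socs2, a target of growth hormone signalling, at -1.53. Among 14 female-biased liver genes 4 were called higher, with Hao2 the highest (1.56), and 2 lower, with Sult3a1 the lowest (-1.88). That list includes Cyp2b9 and Cyp2b13, already counted above. Without them, 2 of 12 were called higher and 2 lower. Among 9 tested male-biased genes 0 were called higher and 5 lower, with Slco1a1 the lowest (-3.78). None of the 6 haem and nicotine metabolism genes was called by edgeR, with 1 at an unadjusted p under 0.05. Since the contrast chose the 9 genes, the lists stand beside them as description. In the comparisons among HFD groups, none of the genes of these lists was called except 1 of 54 other P450 genes, lower in fishmeal than in salmon filet.

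Markers of cell types were read beside these results. None of the 5 hepatocyte markers was called in HFD versus chow. Of 10 pericentral markers 3 were called lower (Cyp1a2, Axin2 and Tbx3) and 0 higher. By estimate 6 of the 10 read higher and 4 lower, with a median log2 fold change of 0.08, and among those not called Cyp2e1 was at 0.47 and Oat at 0.43, both named after their values were seen. Of 8 periportal markers Cdh1 was called lower. For non-parenchymal cells, Clec4g (endothelial), Sox9 (cholangiocyte) and Cd3d (T cell) were called lower and 0 of 3 Kupffer and 0 of 4 stellate markers were called by edgeR, with 1 and 0 at an unadjusted p under 0.05. Of 4 listed pancreatic markers only 1, Cela1, had enough reads to be tested. It was called higher, at 16.3 CPM in HFD-fed and 9.55 CPM in chow-fed mice, and the other pancreatic markers were too low to read. The summed adipocyte markers stayed at 0.113 CPM or below. The part of these markers in the results for the Cyp2a and Cyp2d genes was not tested.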

How the data were processed

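Liver RNA of 20 mice had been sequenced by the authors as paired 50 bp reads. Reads were trimmed with BBDuk, aligned with HISAT2 1.2.1 and counted per gene with featureCounts 1.4.6-p1 (versions per the submitters' processing notes, which name the human build GRCh38 although the gene identifiers are of mouse). The deposited tables hold raw counts and TPM per gene and mouse. Settings for strand and multi-mapping reads were not given in the sources used here. Counts were tested with edgeR 4.0 (R 4.3), TMM scaling, filterByExpr with a minimum count of 10, and Benjamini-Hochberg adjustment over all genes. Standard errors were taken from the fold change and its F statistic. Within-group correlations used log2 CPM with a prior count of 2. Transcript GC and positions came from GENCODE M21, and similarity from blastn 2.17. Scripts were tested on simulated data. All gene lists, and the 9 genes, were chosen with earlier results of these data known. Named genes were the 9 members, every other Cyp2a or Cyp2d symbol, the 3 best correlated genes of each, and from each list the called gene with the largest rise and fall. Replicate pairs of a group differed by more than counting noise (chi-square per degree of freedom 34.0 to 456). Each library came from a separately numbered mouse. Alternatives were DESeq2 1.42, other scalings, no filter, a fit on 4 groups, limma 3.58 on log2(TPM + 1), summed paralogs, each mouse left out, both readings of mouse 31 and, chosen after seeing the data, a GC correction (lowess per library, genes with a GC value 99.8% of those expressed).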

Additional observations from a re-analysis of the deposited data

Results flagged for a closer look

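In groups of 4 or 5 mice, a highest or lowest value was marked when its gap to the next mouse, as a share of the range of the group, passed Dixon's 95% critical value. Of 40 sets of values examined (10 genes in 4 groups), 1 was marked, and chance alone marks about 1 in 20. It was Cyp2d9 in chow mouse 1, at 21.6 CPM, with the nearest chow mouse at 16.2 CPM. The same mouse had the lowest GC trend of all libraries.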

How the results depend on the processing

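The count of called genes among the 9 depended on the settings in 4 comparisons. The share of all coding genes called under each alternative is not given here, so these counts have no background beside them. In HFD versus chow it was 3 in the analysis as described, 5 by DESeq2, 5 with the GC correction and 1 by limma on log2(TPM + 1). Leaving out 1 mouse gave 1 (without mouse 1 or mouse 2) to 5 (without mouse 32). In salmon filet versus chow it was 0, and 2 by DESeq2. In beef versus chow it was 1, with 2 by DESeq2, 0 with similar paralogs summed (which replaces Cyp2a4 and Cyp2a5 by their sum), and 0 to 1 when 1 mouse was left out. In fishmeal versus beef it was 0, with 1 by DESeq2 and 1 with mouse 31 as beef. The cause of these changes was not tested, except that summing removes Cyp2a5 as a unit. In the other comparisons the count stayed within 1.5 times of its value.

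Few directions turned. The log2 fold change of Cyp2d10 in HFD versus chow was -0.023 by limma on TPM and -0.012 with the GC correction, and ran from -0.015 to 0.12 when 1 mouse was left out. That of Cyp2a4 in fishmeal versus salmon filet ran from -0.0046 (without mouse 23) to 0.55. The Cyp2a4 share in salmon filet minus beef ran from -0.60 (without mouse 27) and -0.55 (without mouse 39) to 4.09 percentage points. Single genes lost a call in 32 fits, all of Cyp2d26 and Cyp2a22 in HFD versus chow, Cyp2a12 in fishmeal versus chow and Cyp2a5 in beef versus chow, and gained one in 16 fits, of Cyp2d22, Cyp2d40, Cyp2d26, Cyp2a5 and Cyp2a22, mostly by DESeq2, with the GC correction or without a mouse. The cause was not tested. In the remaining fits 719 values of single genes kept their direction and side of the threshold. A further 157 values of the main results were classed as unchanged. For a Cyp2a4 share this meant the same direction and side of the threshold. For a count of called genes it meant a value within 1.5 times of the main one, so such counts could still differ. No paired analysis was possible because the mouse numbers are not shared between groups. With 4 or 5 mice a group, small differences were beyond reach.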
